A study of Homo sapiens with 96 samples.

Results

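The transcripts of the MYC and MAX network were followed in A375, a cultured line from a human melanoma with mutant BRAF. The network was taken as 10 genes chosen by name, namely MYC, MYCN, MYCL, MAX, MXD1, MXD3, MXD4, MXI1, MNT and MGA, out of 44659 entries of the count table. All 10 had an entry, and 9 of them were among the 14948 entries that passed the filter on low counts. MYCN had 0 counts in all 96 libraries, which allows an expected total of at most about 3 counts over all of them. Counts were obtained by QuantSeq, which reads near the poly(A) tail, so that 1 read stands for 1 transcript end and levels of different genes can be set side by side without a correction for length. Cells had spent 18 h in DMSO or in 500 nM vemurafenib with 500 nM cobimetinib, a BRAF and a MEK inhibitor, together called MAPKi here. They were then given vehicle, 100 µg/ml cycloheximide (CHX), 25 µM triptolide (T) or both (TCHX, with CHX added 5 min ahead of T), and were harvested after 0, 1, 3 or 5 h. This made 32 groups of 3 libraries each, all from the same cell line. The labels do not say that replicates came from separate cultures, so p-values measure the spread between these libraries, which may be technical.

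MYC and its relatives MYCN and MYCL are transcription factors of the basic helix-loop-helix leucine zipper class. They bind DNA only as a pair with MAX, mostly at the E-box CACGTG, and raise the transcription of genes for ribosome assembly, nucleotide synthesis and growth. MXD1, MXD3, MXD4, MXI1 and MNT compete for MAX and the same sites but recruit the SIN3 and histone deacetylase corepressor, while MGA carries MAX into a polycomb complex. In cells driven by the MAPK pathway, MYC is a known target both through its short-lived mRNA and through phosphorylation of its protein, and the MXD genes are known for rising when cells leave the cycle.

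The E-box was searched for in the members' own promoters, since the network is known to act on some of its own genes. The window was the 300 bases from 250 before to 50 after each RefSeq gene start (GRCh38.p14). CACGTG, which reads the same on both strands, was present in 2548 of 35116 promoters, or 7.26%. Of the members, 9 had a promoter entry, with 14 promoters in all, and 2 of these held the motif. They are printed here because they held the motif, and they belong to MXD4 and MNT. MYC was the member without an entry, so its promoter was not searched. The MXD4 window lies at chr4:2262060-2262359 and the MNT window at chr17:2401011-2401310, both on the minus strand and both printed 5′ to 3′ on that strand with the E-box in capitals.
MXD4 promoter: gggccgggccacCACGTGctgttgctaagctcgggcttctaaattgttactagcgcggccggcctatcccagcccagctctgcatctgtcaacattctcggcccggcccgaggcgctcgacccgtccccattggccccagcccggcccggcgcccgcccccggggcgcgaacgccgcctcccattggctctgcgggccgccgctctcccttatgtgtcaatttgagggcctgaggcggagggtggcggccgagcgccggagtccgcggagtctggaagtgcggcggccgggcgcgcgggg
MNT promoter: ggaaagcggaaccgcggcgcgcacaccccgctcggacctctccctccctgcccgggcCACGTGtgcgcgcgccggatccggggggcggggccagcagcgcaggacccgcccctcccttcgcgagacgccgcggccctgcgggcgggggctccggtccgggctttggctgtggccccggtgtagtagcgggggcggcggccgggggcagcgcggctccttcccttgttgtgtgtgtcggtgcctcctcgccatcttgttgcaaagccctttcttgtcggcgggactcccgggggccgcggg
The motif began at position -238 of MXD4 and at -193 of MNT, counted from the gene start. A match describes these letters and is not evidence of binding.

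The shallowest library held 2381351 counts, the median one 7143396 and the deepest 12520154, and no pair of replicates agreed within sampling noise. Of 8 melanocyte lineage genes, the regulators SOX10 and MITF, S100B and MIA were well above 0 in all vehicle libraries at 0 h. The pigment genes were uneven, with MLANA and TYR at most at 3.041 and 0.9526 CPM (counts relative to a common scaled library size), DCT at 47.4 to 63.3 CPM in the DMSO libraries and at 1583 to 2624 with MAPKi, and PMEL at 0.635 to 1.565 and 12.7 to 16.97. S100B was at 291 to 316 CPM with DMSO and 200.4 to 238 with MAPKi. Of 10 outputs of the MAPK pathway listed as a check of the MAPKi label, all 10 were lower in every MAPKi library than in every DMSO library of the vehicle arm at 0 h, and 6 of 10 were so over all arms and times. EPCAM and PTPRC, markers of epithelial and blood cells, were at or near 0, while the epithelial keratin KRT18 was at 135 to 148 CPM in DMSO and 10.6 to 13.1 in MAPKi. CD68, a marker of macrophages, was at 2.01 to 3.11 CPM in DMSO and 13.6 to 17.96 in MAPKi, and the part of either marker in the results below was not tested.

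The make-up of the network was examined in cells that had received vehicle and were harvested at 0 h. In DMSO, MAX and MXI1 together made up most of its transcript ends, with 41.3% ± 5.24 for MAX and 35.1% ± 3.79 for MXI1 (SD, n = 3). MGA had 11.3% ± 1.89 and MNT 4.72% ± 0.236, and MXD3, MXD1, MXD4 and MYC each had between 1.55% and 2.52%. In MAPKi the order was another. MXI1 had the largest share, 41.5% ± 4.15, followed by MAX with 21.04% ± 1.68 and MXD4 with 14.9% ± 1.55, where MXD4 had 1.596% ± 0.233 in DMSO. MYC made up 1.55% ± 0.605 with DMSO but 0.0829% ± 0.0463 with MAPKi (SD, n = 3 each). These shares were not tested. Exon overlaps with other genes, given below, leave the counts of several members uncertain, and their shares with them.

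The comparison of MAPKi with DMSO asked which transcripts of the network differ after 18 h of kinase inhibition alone. At 0 h of the vehicle arm, MXD4, MXD3, MXI1 and MNT were higher and MYC and MAX lower in MAPKi. MXD1, MYCL and MGA were not called. Calls were made at a Benjamini-Hochberg adjusted p under 0.05 over all genes in edgeR's quasi-likelihood test, with libraries scaled by TMM. This made 6 of the 9 members tested, 4 higher and 2 lower, where 45.9% of all genes were called, 21.9% higher and 24% lower. The median log2 difference was 0.44 over the members and 0.03 over all genes. In these bulk libraries, a lower level in all cells and loss from a part of the cells cannot be told apart.

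MYC (GRCh38 chromosome 8, 127735434 to 127742951) had 2.90, 5.95 and 7.30 CPM in the DMSO libraries and 0.548, 0.179 and 0.269 in MAPKi. The groups did not overlap, although the MAPKi values rest on 4, 1 and 2 counts. The fitted log2 difference was −3.93 ± 0.82 (SE), or 15.3-fold lower (adjusted p 4.41e-05). Over the 4 vehicle times, the 12 DMSO libraries ran from 1.36 to 8.77 CPM with a median of 5.37, and the 12 MAPKi libraries from 0 to 1.64 with a median of 0.605. At 5 h the lowest DMSO libraries, at 1.36 and 1.58 CPM, came close to the highest MAPKi library at that time, at 0.802. MYC lies opposite the antisense gene CASC11, and since no source gives the strand setting of the counting, reads of the pair cannot be told apart.

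MAX (chromosome 14, 65006174 to 65102695), the obligate partner, had 115, 156 and 156 CPM in DMSO and 77.7, 80.5 and 92.3 in MAPKi. All DMSO libraries were above all MAPKi libraries. The log2 difference was −0.77 ± 0.13 (adjusted p 5.42e-07), or 1.71-fold lower. Averaged over the 4 times it was −0.64 ± 0.06 (adjusted p 1.90e-14), and over those times the lowest DMSO library, at 99.2 CPM, was still above the highest MAPKi library, at 97.3. MAX overlaps FNTB on the opposite strand, so its counts are uncertain to that extent. The same holds for MYCL, which overlaps exons of MYCL-AS1 on the opposite strand, and for MXI1, MNT and MGA, each of which overlaps exons of at least 1 unnamed antisense gene.

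Of the repressors, MXD4 (chromosome 4, 2247432 to 2262109) had the largest difference. It had 6.015, 5.48 and 4.87 CPM in DMSO and 56.1, 62.6 and 58.3 in MAPKi. This is a 10.9-fold rise, with a log2 difference of 3.45 ± 0.22 (adjusted p 3.95e-23). The groups stayed far apart at later times, with 4.87 to 11.9 CPM over 12 DMSO libraries and 47.97 to 76.3 over 12 MAPKi libraries, and an averaged difference of 3.04 ± 0.11 (adjusted p 2.45e-40).

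MXD3 (chromosome 5, 177301461 to 177312757), the family member known for expression in dividing cells, had 8.92, 8.45 and 8.47 CPM in DMSO and 19.2, 15.02 and 20.2 in MAPKi. It was 2.11-fold higher, a log2 difference of 1.08 ± 0.23 (adjusted p 5.39e-05). Its exons overlap those of RAB24 on the same strand and of PRELID1 on the other, so its counts are uncertain to that extent. MXI1 (chromosome 10, 110207605 to 110287365), the most abundant repressor here, had 128, 119 and 113 CPM in DMSO and 185, 141 and 169.6 in MAPKi. Its groups did not overlap either, and its log2 difference was 0.46 ± 0.10 (adjusted p 7.61e-05).

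MNT (chromosome 17, 2384073 to 2401104), a repressor that most cell types express, had 14.5, 16.9 and 17.25 CPM in DMSO and 24.5, 21.8 and 19.9 in MAPKi. The groups were apart, but the log2 difference of 0.44 ± 0.19 passed only narrowly (adjusted p 0.0487). Its adjusted p was 0.342 without replicate 1, 0.101 without replicate 2 and 0.134 without the filter on low counts. Averaged over the 4 vehicle times, the difference was 0.28 ± 0.09 (adjusted p 0.00642).

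MXD1 (chromosome 2, 69897688 to 69942945), known for its induction in differentiating cells, had 6.84, 5.95 and 4.23 CPM in DMSO and 8.91, 7.69 and 9.03 in MAPKi. The groups did not overlap, yet the log2 difference of 0.62 had a 95% interval from −0.04 to 1.28 and was not called (adjusted p 0.115). Over the 4 times it was called, at 0.71 ± 0.16 (adjusted p 6.76e-05). MXD1 shares exonic sequence with SNRNP27 on the same strand. In that averaged comparison 7 of 9 members were called, 5 higher and 2 lower, where 69% of all genes were called.

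MGA (chromosome 15, 41621134 to 41773081), by far the largest protein of the network, had 42.7, 32.9 and 39.8 CPM in DMSO and 31.5, 46.1 and 40.1 in MAPKi. The groups overlapped, and the log2 difference of 0.03 had an interval from −0.24 to 0.30. MYCL (chromosome 1, 39895428 to 39902256) rested on 3, 7 and 9 counts in DMSO and 8, 3 and 5 in MAPKi. At that depth the interval of its log2 difference, −1.998 to 1.58, left a change of several-fold in either direction undetectable. Averaged over the 4 times MYCL was at 0.75 (adjusted p 0.133), and it was called without replicate 2, at 1.43 (adjusted p 0.0398).

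**Figure D1:**
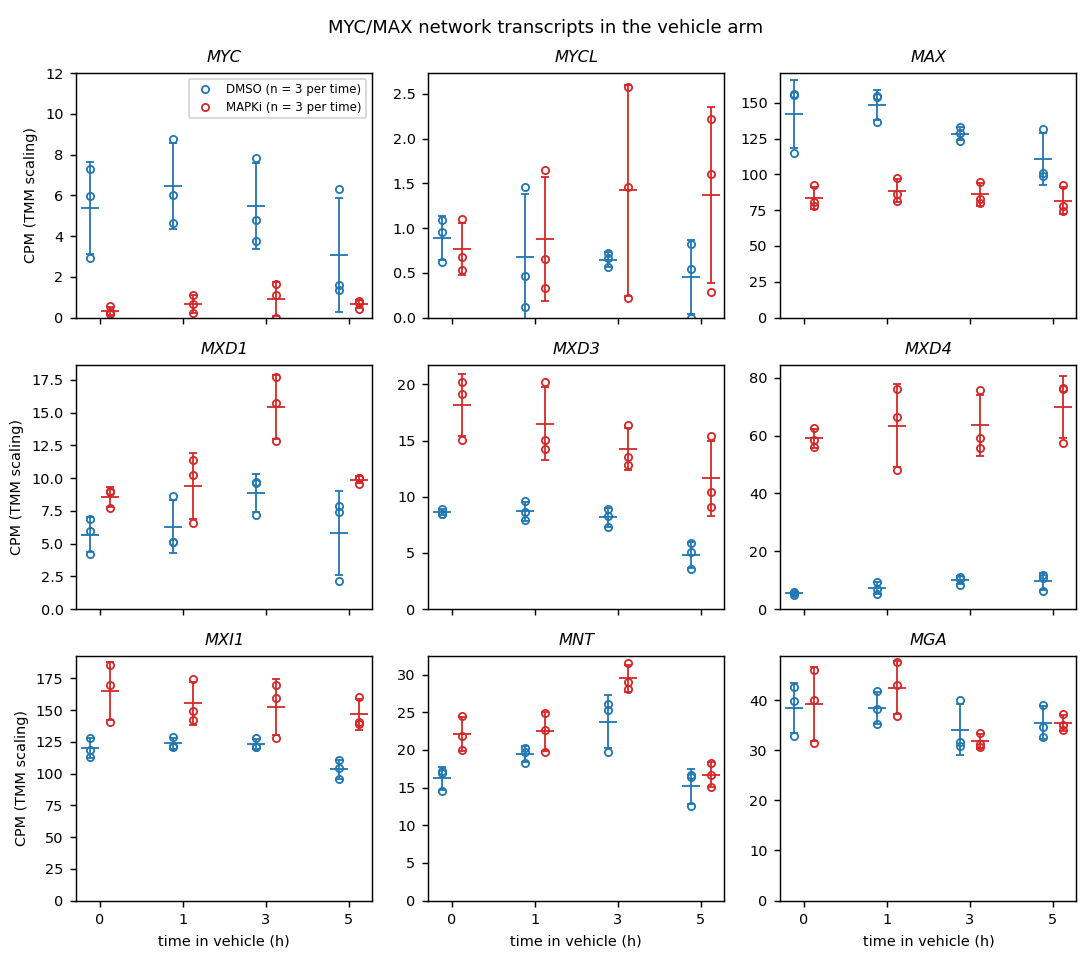
CPM (TMM scaling, linear axes from 0) of the 9 detected members in the vehicle arm against time in h; circles are single libraries, horizontal bars are means and whiskers are SD, n = 3 per group. DMSO is blue and MAPKi red. MXD4 lies between 4.87 and 11.9 CPM with DMSO and between 47.97 and 76.3 with MAPKi, MAX and MYC are lower in MAPKi, and MGA overlaps.

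Time in vehicle alone was examined as a background for the inhibitor arms. Between 0 and 5 h, 0 of 9 members were called in either pretreatment (edgeR, adjusted p under 0.05), where 1.06% of all genes were called in DMSO and 3.34% in MAPKi. DESeq2 called 0 members in both. At an unadjusted p under 0.05 there were 4 members in DMSO and 2 in MAPKi, against 1805 and 2223 of all 14948 genes. In DMSO these members were MXD4, at a log2 difference of 0.78, and MXD3, MAX and MXI1, at −0.81, −0.36 and −0.21. In MAPKi they were MXD3, at −0.65, and MNT, at −0.41.

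The genes that work with or are controlled by the network were described for the same comparison of MAPKi with DMSO at 0 h. They were taken from lists of textbook members, which were chosen with earlier results of these data known. Of 37 MYC target genes tested, 33 were lower and 1 was higher in MAPKi, with a median log2 difference of −1.37 against 0.03 for all genes, of which 24% were lower and 21.9% higher. POLR1B, a subunit of RNA polymerase I, went from 171 ± 9.94 to 37.3 ± 1.69 CPM (log2 difference −2.195, adjusted p 4.34e-29), and DKC1, which modifies ribosomal RNA, from 859 ± 62.1 to 220 ± 38.9 (−1.97, adjusted p 2.79e-24). The gene that rose was SRM, which makes spermidine, from 383 ± 31.1 to 904 ± 97.8 CPM (1.24, adjusted p 1.60e-14; SD, n = 3 each).

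Among 15 proteins known to bind MYC mRNA or to act on its stability, 14 were lower and 0 higher. ZFP36L2, which promotes the decay of mRNAs with AU-rich elements, had a log2 difference of −2.17 ± 0.26 (adjusted p 6.17e-11), and IGF2BP3, which protects bound mRNAs, had −1.77 ± 0.14 (adjusted p 9.92e-19). The list thus fell with members of opposite known action, and its median was −0.73.

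Of 14 MYC cofactors, 8 were lower and 3 higher. RUVBL1, a helicase of chromatin complexes, had −1.38 ± 0.11 (adjusted p 1.05e-18), and ZBTB17, the partner through which MYC represses, had 0.34 ± 0.15 (adjusted p 0.0464). In the set that governs the MYC protein, 7 of 16 were lower and 1 was higher, with SKP2, a ubiquitin ligase subunit, at −1.46 ± 0.28 (adjusted p 9.72e-06). For the corepressor that the MXD proteins and MNT recruit, 4 of 12 SIN3 complex genes were higher and 4 lower, not far from the shares of all genes, 21.9% and 24%. ARID4A had 0.77 ± 0.11 (adjusted p 9.61e-09) and the deacetylase HDAC2 −0.76 ± 0.08 (adjusted p 2.12e-13). For the polycomb complex of MGA, 5 of 9 genes were lower and 1 was higher, with E2F6 at −0.88 ± 0.18 (adjusted p 2.46e-05). In the parallel MLX branch, MLX was lower (−0.68 ± 0.11, adjusted p 1.52e-07) and MLXIP higher (0.62 ± 0.13, adjusted p 3.31e-05).

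Cycloheximide was compared with vehicle, without triptolide, to ask how the transcripts move when elongation of translation is blocked. After 1 h, 0 of 9 members were called in either pretreatment (edgeR), where 0.0803% of all genes were called in DMSO and 0.0736% in MAPKi. An unadjusted p under 0.05 was reached by MXI1 alone in DMSO, at a log2 difference of −0.23, and by 0 members in MAPKi, and DESeq2 called 0 in both. Of all 14948 genes, 704 had such a p in DMSO and 1427 in MAPKi. The difference between pretreatments at 1 h was called for 0 members, with 0 at an unadjusted p under 0.05 and 0 by DESeq2, where 0.0201% of all genes were called. Averaged over 3 and 5 h, 5 members were called in DMSO, with MXD1, MYC and MAX higher and MXD4 and MXI1 lower, where 31.7% of all genes were called. In MAPKi 5 were called as well, with MYC, MXD1, MNT and MGA higher and MXD4 lower, where 29.9% of all genes were called.

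MXD1 had the largest change, in DMSO cells. At 3 h it had 9.66, 7.195 and 9.70 CPM with vehicle and 36.75, 34.9 and 37.25 with CHX. At 5 h it had 7.43, 7.90 and 2.15 CPM with vehicle and 71.4, 61.8 and 62.95 with CHX. Every CHX library was thus more than 3 times every vehicle library of the same time. The log2 difference over both times was 2.81 ± 0.22, or 6.99-fold (adjusted p 2.61e-18). Its share of the network's transcript ends was 17.5% ± 1.604 in the CHX libraries at 5 h (SD, n = 3).

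In MAPKi cells the rise of MXD1 was smaller. At 5 h it had 10.01, 10.03 and 9.57 CPM with vehicle and 20.8, 20.8 and 18.1 with CHX, which did not overlap. At 3 h the groups did, with 15.75, 12.9 and 17.7 CPM against 16.5, 17.5 and 21.7. The averaged log2 difference was 0.64 ± 0.21 (adjusted p 0.0126), and the call was lost without replicate 1 (0.1003) and without replicate 3 (0.0583). The difference between pretreatments was tested itself and was called, with a CHX effect smaller by 2.17 ± 0.30 on the log2 scale in MAPKi, or 4.50-fold (fitted difference −2.17, adjusted p 5.63e-08). In that comparison of effects 2 of 9 members were called, where 11.2% of all genes were.

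MYC in DMSO cells at 3 h had 3.78, 4.797 and 7.83 CPM with vehicle and 16.07, 11.6 and 17.55 with CHX, with no overlap. At 5 h the groups overlapped, with 1.58, 1.36 and 6.31 CPM against 3.90, 2.45 and 10.2. The log2 difference of 1.12 ± 0.43 passed (adjusted p 0.0368), but not without replicate 1 (0.306) or replicate 2 (0.0608). In MAPKi cells the values at 5 h were 0.429, 0.802 and 0.705 CPM with vehicle, from 3, 6 and 7 counts, and 1.47, 5.03 and 1.685 with CHX, from 15, 57 and 17 counts. Here all CHX libraries were above all vehicle libraries, whereas at 3 h, with 9, 0 and 14 counts against 8, 27 and 18, they were not. The log2 difference was 1.59 ± 0.51 (adjusted p 0.0128), and it was 1.82 (adjusted p 0.0674) without replicate 1 and 0.86 (adjusted p 0.298) without replicate 2. The difference of the MYC effects between pretreatments was 0.47 with an interval from −0.84 to 1.78, so that neither equality nor a severalfold difference was shown.

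MNT rose with CHX in MAPKi cells. At 5 h it had 16.7, 18.3 and 15.01 CPM with vehicle and 36.9, 36.5 and 45.3 with CHX. The CHX libraries were all about 2 times the vehicle libraries or more, while at 3 h the values of 28.1, 31.5 and 28.95 and of 33.1, 31.1 and 41.99 CPM overlapped. The averaged log2 difference was 0.76 ± 0.13 (adjusted p 1.30e-06). In DMSO it was 0.11 with an interval from −0.16 to 0.38. The difference between pretreatments was 0.65 ± 0.18 (adjusted p 0.0110), and it was not called without replicate 2 (0.68, adjusted p 0.0570) or without replicate 3 (0.57, adjusted p 0.151).

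MXD4 moved down in both pretreatments. In MAPKi at 5 h it had 75.9, 76.3 and 57.4 CPM with vehicle and 41.8, 33.96 and 34.6 with CHX. In DMSO at 5 h it had 11.9, 10.6 and 6.18 CPM with vehicle and 3.58, 5.58 and 3.55 with CHX. All CHX libraries were below all vehicle libraries in both. The log2 difference over 3 and 5 h was −1.003 ± 0.18 in DMSO (adjusted p 3.67e-06) and −0.77 ± 0.13 in MAPKi (adjusted p 1.29e-06), and the interval of their difference ran from −0.20 to 0.67.

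The remaining members moved less. MAX was higher by 0.32 ± 0.09 in DMSO (adjusted p 0.00322, but 0.0890 without replicate 1), and in MAPKi its log2 difference was 0.08, with an interval from −0.11 to 0.26. MXI1 was lower by a log2 difference of −0.26 ± 0.07 in DMSO (adjusted p 0.00358, but 0.0720 without replicate 3), and in MAPKi it was at −0.16 (adjusted p 0.0732). CHX against vehicle was not tested on the scale of stable genes used below for triptolide. On that scale MXI1 had its highest mean of the 32 groups with CHX at 5 h in MAPKi, 186 ± 35.9 CPM (SD, n = 3). MGA was higher in MAPKi, with 37.2, 35.03 and 34.15 CPM with vehicle and 50.5, 41.3 and 47.4 with CHX at 5 h. Its log2 difference was 0.47 ± 0.09 (adjusted p 3.24e-05), against 0.19 in DMSO (adjusted p 0.113), and the difference between the effects was not called (0.28, adjusted p 0.185). MXD3 was not called, with intervals of −0.53 to 0.20 for DMSO and −0.11 to 0.51 for MAPKi. Without replicate 1, 3 members were called in each pretreatment.

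**Figure D2:**
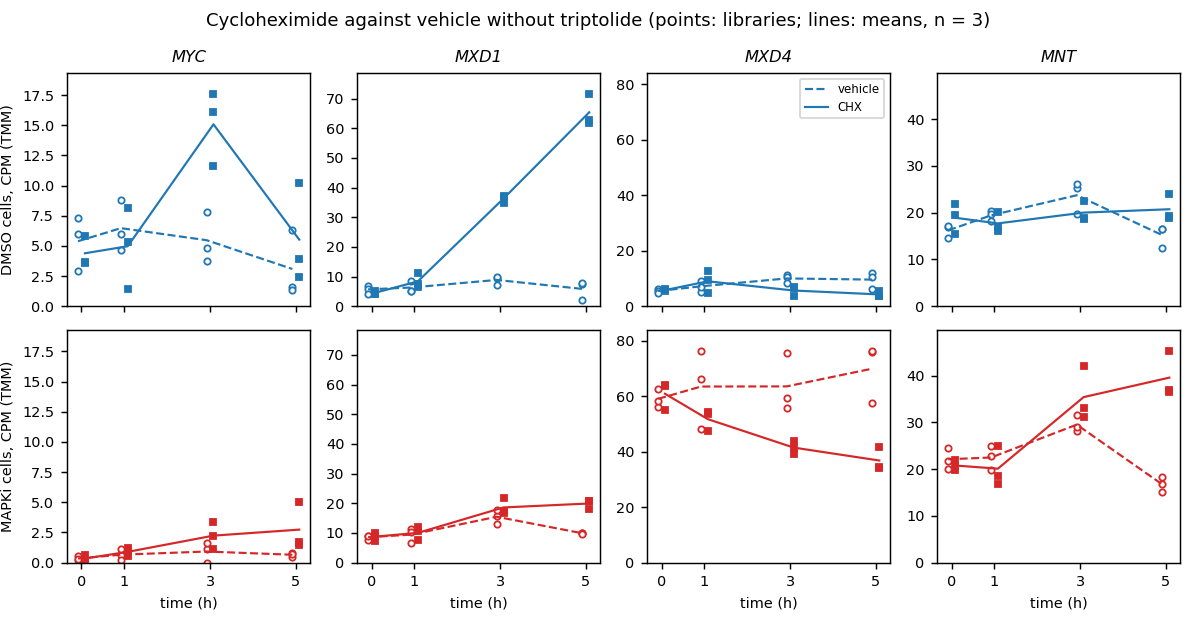
CPM (TMM scaling, linear axes from 0) of MYC, MXD1, MXD4 and MNT against time in h, with vehicle (open circles, dashed lines) and CHX (filled squares, solid lines). The upper row is DMSO and the lower row MAPKi, points are libraries, lines join means (n = 3), and each gene has 1 scale for both rows. MXD1 with CHX in DMSO reaches 61.8 to 71.4 CPM at 5 h, and MXD4 with CHX lies below vehicle.

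The associated lists were described under CHX at 3 and 5 h, where 18.3% of all genes were higher and 13.5% lower in DMSO, and 15.9% higher and 13.9% lower in MAPKi. Among MYC mRNA binding proteins, 5 of 15 were higher and 4 lower in each pretreatment. ZFP36L1, a decay factor of AU-rich mRNAs, rose from 156 ± 41.1 to 324 ± 33.6 CPM in DMSO (log2 difference 1.08, adjusted p 5.26e-13) and from 109 ± 14.7 to 302 ± 49.8 in MAPKi (1.47, adjusted p 1.87e-18; SD over the libraries of both times). Of 37 MYC target genes, DMSO cells had 10 higher and 5 lower and MAPKi cells 14 higher and 5 lower, with medians of 0.02 and 0.28 against 0.01 and −0.01 for all genes. In the SIN3 corepressor, ARID4A and ARID4B rose in both pretreatments, by log2 differences of 1.39 and 1.27 in DMSO and 0.98 and 0.63 in MAPKi. The lists of MYC cofactors, the MGA complex, MYC protein turnover and the MLX branch had 5, 1, 4 and 0 genes higher and 1, 2, 4 and 1 lower in DMSO, and 6, 1, 4 and 0 higher and 0, 1, 1 and 0 lower in MAPKi.

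Triptolide was used to ask how much of each transcript remains once transcription has stopped. These comparisons were scaled on 36 stable genes, none of them a member, since triptolide removes RNA from most genes. On this scale the median transcript kept 64.4% ± 3.16 of its initial level at 5 h in DMSO and 59.3% ± 1.44 in MAPKi (SD, n = 3), with the vehicle arm at 0 h as the initial level. After 1 h of T, 0 of 9 members were called against vehicle at 0 h (edgeR), where 0.883% of all genes were called in DMSO and 1.61% in MAPKi. At an unadjusted p under 0.05 there were 0 members in DMSO and 2 in MAPKi, MYC and MNT, and DESeq2 called 0 in both. Of all 14948 genes, 1507 had such a p in DMSO and 1936 in MAPKi. After 5 h, 8 of 9 members were lower and 0 higher in each pretreatment, where 49.3% of all genes were lower and 1.49% higher in DMSO, and 55.1% lower and 1.54% higher in MAPKi. The median log2 change was −1.04 over the members and −0.57 over all genes in DMSO, and −1.63 and −0.69 in MAPKi. A scaling by TMM, which centres the typical gene, called 4 members in each, and total counts called 5.

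Leaving aside MYCL with its few counts, MYC fell furthest of the members in DMSO, with 44.75% ± 22.4 left after 1 h, 9.29% ± 10.15 after 3 h and 3.93% ± 4.02 after 5 h (SD, n = 3). The 5 h libraries held 2, 4 and 0 counts. The fitted log2 change at 5 h was −4.68 ± 0.82 (adjusted p 1.45e-06). In MAPKi the libraries held 0 counts at 1 h, 0 at 3 h and 0, 1 and 0 at 5 h. Since the initial libraries held only 4, 1 and 2, no fold is given, and the change at 5 h was not called (adjusted p 0.0894). DESeq2 did call it (adjusted p 0.0448), as did edgeR without replicate 2 (adjusted p 0.0462).

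MXD1 fell to 40.3% ± 4.14 at 3 h and 14.6% ± 0.524 at 5 h in DMSO. The levels left in MAPKi were 24.1% ± 2.99 and 22.2% ± 1.43 (SD, n = 3). Its log2 changes at 5 h were −2.71 ± 0.41 in DMSO (adjusted p 4.17e-08) and −2.16 ± 0.36 in MAPKi (adjusted p 2.18e-07). At 5 h the MYCL counts were 1, 0 and 2 for DMSO cells and 0, 0 and 2 for MAPKi cells, at or under the limit of 3 counts over the group, so no fold is given. Both its calls (adjusted p 0.0148 and 0.0157) were lost under TMM (0.0646 and 0.0847) and without replicate 2 (0.148 and 0.113). The MAPKi call was also lost without replicate 1 (0.172), with total counts (0.0510) and with the T arm at 0 h as the initial level (0.0865).

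MGA and MNT fell further than the median transcript in both pretreatments. MGA kept 39.1% ± 4.58 at 5 h in DMSO and 34.4% ± 5.03 in MAPKi, with log2 changes of −1.35 ± 0.16 (adjusted p 1.22e-11) and −1.55 ± 0.16 (adjusted p 8.34e-14). MNT kept 48.6% ± 9.38 and 29.4% ± 5.01 (SD, n = 3), with changes of −1.04 ± 0.21 (adjusted p 1.77e-05) and −1.77 ± 0.21 (adjusted p 1.56e-11). Its libraries at 5 h had 10.3, 7.21 and 7.85 CPM in DMSO and 7.80, 5.62 and 7.54 in MAPKi on the stable-gene scale, which overlapped.

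MXD4, MXI1 and MAX were the most persistent members in DMSO. MXD4 kept 86.6% ± 24.5 at 5 h in DMSO, where its log2 change of −0.16 was not called (interval −0.68 to 0.35), and 66.7% ± 6.67 in MAPKi, where −0.59 ± 0.19 was called (adjusted p 0.00578). MXI1 kept 74.7% ± 5.10 in DMSO and 67.95% ± 2.204 in MAPKi, and MAX 66.05% ± 5.65 and 50.98% ± 4.54 (SD, n = 3). Their log2 changes were −0.42 ± 0.11 and −0.56 ± 0.11 for MXI1 (adjusted p 0.00145 and 1.59e-05) and −0.60 ± 0.12 and −0.98 ± 0.13 for MAX (1.98e-05 and 2.42e-10). These falls depend on the scaling. With TMM, MXI1 was at 0.15 in DMSO and 0.20 in MAPKi (adjusted p 0.271 and 0.102), MXD4 at 0.17 in MAPKi (0.478), and MAX at −0.04 and −0.22 (0.831 and 0.186). With total counts, MXI1 was at −0.05 and −0.16 (adjusted p 0.750 and 0.225), MXD4 in MAPKi at −0.19 (0.450) and MAX in DMSO at −0.25 (0.134). The MXD4 call in MAPKi was also lost without replicate 2 (−0.49, adjusted p 0.0549).

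MXD3 kept 55.3% ± 9.01 at 5 h in DMSO and 31.8% ± 13.95 in MAPKi (SD, n = 3). Its log2 changes were −0.84 ± 0.24 (adjusted p 0.00272; 0.387 with TMM and 0.121 with total counts) and −1.63 ± 0.23 (adjusted p 4.84e-09). Whether a fall under T differed between pretreatments was tested as such, and 0 of 9 members were called at 1 h or 5 h (edgeR), where 0.0134% and 3.08% of all genes were. At 5 h an unadjusted p under 0.05 was reached by 3 members with a larger fall in MAPKi, MXD3 at −0.78 (adjusted p 0.246), MNT at −0.73 (0.207) and MAX at −0.38 (0.301), and at 1 h by 0. Of all 14948 genes, 2061 had such a p at 5 h and 639 at 1 h, in either direction. DESeq2 called 0 members at both times. Without replicate 2, MXD3 was called at 5 h, at −1.45 (adjusted p 0.0344).

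CHX was then compared with no CHX during triptolide, which asks whether more transcript is present when translation is blocked as well. At 1 h, 0 of 9 members were called (edgeR), where 0.0401% of all genes were called in DMSO and 0.368% in MAPKi. An unadjusted p under 0.05 was reached by 0 members in DMSO and by MAX alone in MAPKi, at 0.27, and DESeq2 called 0 in both. Of all 14948 genes, 616 had such a p in DMSO and 1194 in MAPKi. Averaged over 3 and 5 h, MYC, MAX, MXD1, MNT and MGA were higher in DMSO, 5 of 9 members, where 28.4% of all genes were higher. In MAPKi, MYCL, MAX, MXD1, MXD3, MNT and MGA were higher, 6 of 9 members, where 41.4% of all genes were higher. None of the 9 was called lower with edgeR in either. The median log2 difference of the members was 0.31 in DMSO and 0.90 in MAPKi, against 0.23 and 0.34 over all genes.

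MGA was among the clearest. At 5 h in DMSO it had 15.98, 18.2 and 14.4 CPM with T and 28.8, 25.5 and 28.95 with TCHX, on the stable-gene scale. In MAPKi it had 14.1, 12.6 and 16.8 with T and 27.1, 35.3 and 42.7 with TCHX. All TCHX libraries were above all T libraries in both pretreatments. The log2 differences over 3 and 5 h were 0.62 ± 0.11 (adjusted p 3.87e-06) and 0.90 ± 0.11 (adjusted p 9.98e-11).

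MNT at 5 h had 10.3, 7.21 and 7.85 CPM with T and 14.6, 12.2 and 18.3 with TCHX in DMSO, and the MAPKi libraries had 7.80, 5.62 and 7.54 with T and 18.4, 10.3 and 9.165 with TCHX. Its groups did not overlap. The log2 differences were 0.64 ± 0.15 in DMSO (adjusted p 0.000241, but 0.0574 without replicate 3) and 0.83 ± 0.15 in MAPKi (adjusted p 2.26e-06).

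MXD1 at 5 h had 0.858, 0.915 and 0.912 CPM with T and 3.77, 4.02 and 2.86 with TCHX in DMSO, with no overlap. This was 14.6% ± 0.524 of the initial level with T and 57.8% ± 9.94 with TCHX (SD, n = 3). The log2 difference over 3 and 5 h was 1.31 ± 0.28 (adjusted p 0.000118). In MAPKi it was 1.00 ± 0.27 (adjusted p 0.00122), with 2.18, 1.93 and 2.00 CPM against 2.67, 2.28 and 6.045 at 5 h, and it was not called with TMM (0.61, adjusted p 0.0675) or without replicate 1 (0.89, adjusted p 0.0607).

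MAX in MAPKi had 47.9, 40.9 and 48.01 CPM with T and 83.65, 70.9 and 96.3 with TCHX at 5 h, which did not overlap. In DMSO it had 104, 90.6 and 107 with T and 135, 129 and 111 with TCHX. The log2 difference was 0.69 ± 0.09 in MAPKi (adjusted p 1.98e-10) and 0.22 ± 0.09 in DMSO (adjusted p 0.0394). The latter call was fragile. It was −0.01 with TMM (adjusted p 0.970), 0.07 with total counts (0.641), 0.21 without replicate 1 (0.246), 0.10 without replicate 2 (0.646), and had an adjusted p of 0.0906 without the filter on low counts.

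MXD3 in MAPKi had 4.47, 9.31 and 4.77 CPM with T and 17.4, 20.7 and 18.9 with TCHX at 5 h. The log2 difference was 1.18 ± 0.16 (adjusted p 1.45e-09), while in DMSO it was 0.29 with an interval from −0.06 to 0.63. MAX and MXD3 were also the members for which the difference between pretreatments itself was called, 2 of 9 where 7.11% of all genes were called. The effect was larger in MAPKi by 0.47 ± 0.12 for MAX (adjusted p 0.00749) and by 0.89 ± 0.24 for MXD3 (adjusted p 0.00868). For MAX it was not called with TMM (0.32, adjusted p 0.184), with total counts (0.39, 0.0568), without replicate 1 (0.48, 0.128) or without replicate 3 (0.41, 0.0889). For MXD3 it was not called with TMM (0.74, 0.0565), without replicate 1 (0.74, 0.161) or without replicate 3 (0.90, 0.136).

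MYC in DMSO under T and TCHX rested on few counts, 2, 15 and 1 against 1, 20 and 12 at 3 h and 2, 4 and 0 against 13, 11 and 0 at 5 h. The groups overlapped at both times. The log2 difference of 1.63 ± 0.60 was called (adjusted p 0.0325), but not with TMM (0.0862), total counts (0.0744), without replicate 1 (0.267) or without replicate 3 (0.0795). In MAPKi, T libraries held at most 1 count and TCHX libraries at most 5 at 3 and 5 h, and no difference was detectable at this depth. MYCL in MAPKi had 10, 3 and 0 counts with T at 3 h and 0, 0 and 2 at 5 h, against 3, 3 and 8 and 4, 8 and 8 with TCHX. The call (adjusted p 0.0287) was lost with TMM (0.101), total counts (0.0764), without replicate 2 (0.248) and without replicate 3 (0.0509), and no fold is given.

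MXD4 and MXI1 were the only tested members without a call in either pretreatment. The missing call does not set MXD4 apart in DMSO. Its log2 difference there was 0.30, while that of MAX, which was called, was 0.22. The interval of the log2 difference of MXD4 was −0.05 to 0.65 for DMSO and −0.15 to 0.38 for MAPKi. That of MXI1 was −0.03 to 0.29 for DMSO and −0.18 to 0.14 for MAPKi. With TMM, MXI1 in MAPKi was called lower, at −0.41 (adjusted p 1.78e-06), and with total counts at −0.25 (0.00526).

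**Figure D3:**
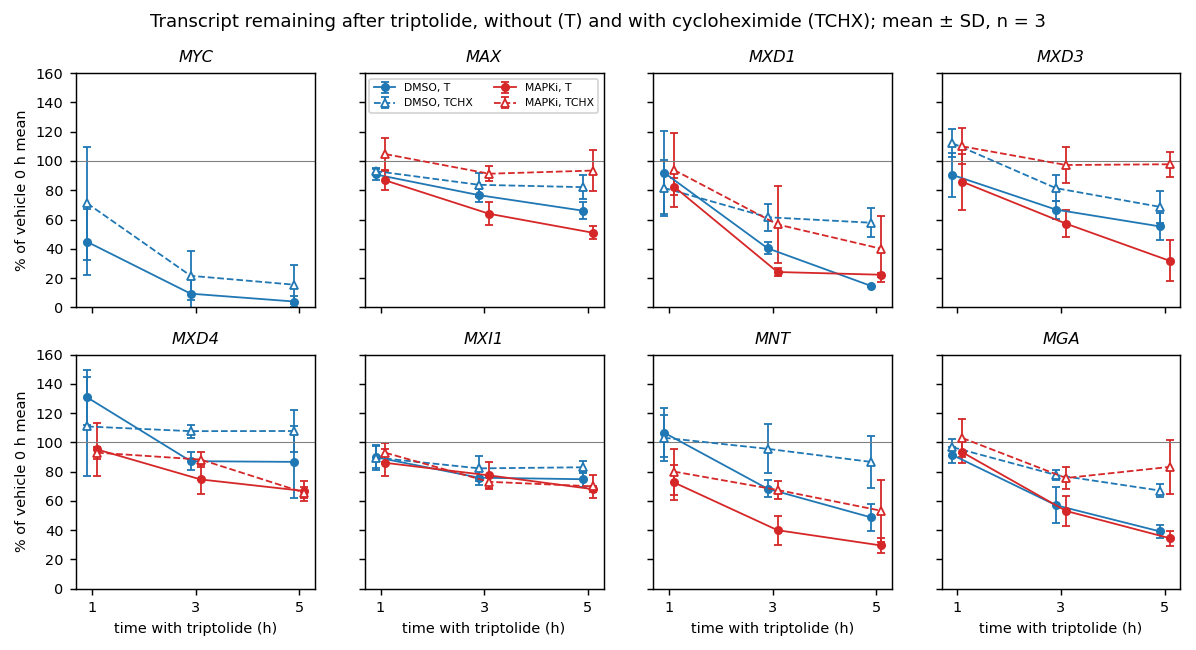
Percent of the mean of the vehicle arm at 0 h (stable-gene scaling, axis from 0) against hours with triptolide for 8 members, mean ± SD, n = 3; T is drawn with filled circles and solid lines, TCHX with open triangles and dashed lines, DMSO in blue and MAPKi in red. MYC in MAPKi is not drawn because its initial libraries held 4, 1 and 2 counts. MXI1 in MAPKi kept 67.95% with T and 69.9% with TCHX at 5 h, while MAX in MAPKi kept 50.98% with T and 93.5% with TCHX at 5 h.

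The TDD index expresses the same contrast as a fraction of the initial level, as TCHX minus T divided by vehicle at 0 h, averaged over 3 and 5 h. In DMSO it was highest for MXD1, at 0.335 ± 0.0983, and MNT, at 0.328 ± 0.175, and lowest for MXI1, at 0.0723 ± 0.0586. In MAPKi, leaving aside MYC and MYCL with their few counts, it was 0.536 ± 0.0651 for MXD3, 0.358 ± 0.0423 for MGA and 0.349 ± 0.0142 for MAX, and −0.0124 ± 0.0228 for MXI1 (SD, n = 3). For MAX the 3 values lay between 0.0601 and 0.165 with DMSO and between 0.333 and 0.3575 with MAPKi, and for MXD3 between 0.08165 and 0.1935 and between 0.481 and 0.608, so that the pretreatments did not overlap. For MGA they did, with 0.146 to 0.3199 and 0.319 to 0.403. Each value joins libraries by their replicate number, which was not shown to pair samples, and the index was not tested. It was not computed for all genes, so the share of genes without overlap is not known. On the stable-gene scale, the log2 difference of TCHX to T was larger in MAPKi over all genes too, by a median of 0.13. There 1019 genes were called larger and 44 smaller. This shift depends on the scaling. With TMM the median was −0.02, with 423 genes larger and 132 smaller. With total counts it was 0.05, with 697 larger and 79 smaller.

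**Figure D4:**
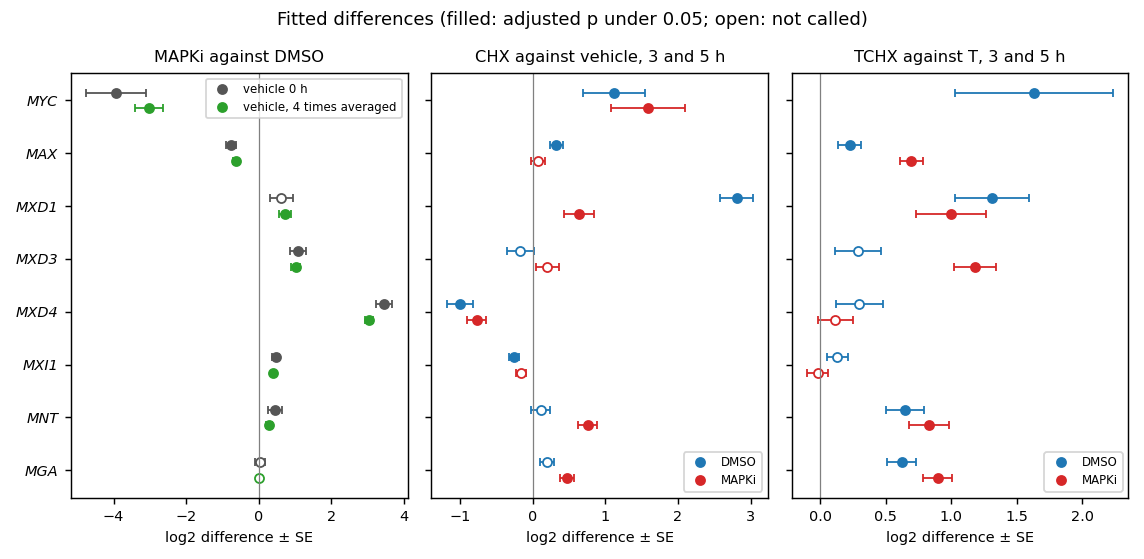
Fitted log2 differences with SE (edgeR) for 8 members in MAPKi against DMSO (grey: vehicle 0 h; green: average of 4 vehicle times), CHX against vehicle and TCHX against T (3 and 5 h, DMSO blue, MAPKi red). Filled points have an adjusted p under 0.05 and open points do not, and MYC in MAPKi is left out of the right panel because its counts are at the floor. MYC and MXD4 sit at the opposite ends of the left panel, at −3.93 and 3.45, and MXD1 in DMSO leads the middle panel at 2.81.

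The pathway lists were described in the triptolide arms as well. After 5 h of T, 49.3% of all genes were lower in DMSO and 55.1% in MAPKi. Of 37 MYC target genes, 23 were lower after 5 h of T in DMSO and 28 in MAPKi, with medians of −0.47 and −0.58 against −0.57 and −0.69 over all genes. Of 15 MYC mRNA binding proteins, 13 and 12 were lower (medians −0.73 and −0.89), and of 16 genes for turnover of the MYC protein, 11 and 12 (−0.69 and −0.81). Among the SIN3 corepressor 10 and 9 of 12 were lower, among MYC cofactors 8 and 9 of 14, in the MGA complex 6 and 7 of 9, and in the MLX branch 2 of 2 in both. CCNT1, the cyclin of the elongation factor P-TEFb that MYC recruits, fell in DMSO from 78.2 ± 7.84 to 8.75 ± 1.83 CPM (log2 change −3.15, adjusted p 3.32e-31).

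With CHX added to T, over 3 and 5 h, 28.4% of all genes were higher in DMSO and 41.4% in MAPKi. No list had a gene called lower with edgeR on the stable-gene scale. On that scale 70 and 80 of all 14948 genes were lower, against 1044 and 2261 with TMM, for which the lists were not counted. MYC targets were higher for 20 of 37 genes in DMSO and 28 of 37 in MAPKi, with medians of 0.27 and 0.47 against 0.23 and 0.34 over all genes. The binding proteins of MYC mRNA were higher for 9 and 11 of 15, turnover genes for 8 and 12 of 16, cofactors for 7 and 8 of 14, SIN3 genes for 5 and 8 of 12, MGA complex genes for 2 and 7 of 9, and the MLX branch for 2 of 2 in both. In MAPKi, ZFP36L1 went from 11.6 ± 2.80 CPM with T to 68.3 ± 9.33 with TCHX (log2 difference 2.57, adjusted p 4.13e-30), and ARID4B, a SIN3 subunit, from 38.7 ± 11.1 to 152 ± 8.19 (2.03, adjusted p 2.84e-38). As the difference between pretreatments, a larger effect in MAPKi was called for 8 of 37 MYC targets and 5 of 16 turnover genes, where 6.82% of all genes had a larger and 0.294% a smaller effect. The counts were 2 of 15 for binding proteins, 2 of 12 for SIN3 genes, 1 of 14 for cofactors, 1 of 9 for the MGA complex and 0 of 2 for the MLX branch, and a smaller effect was called for 0 genes of any list (edgeR).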

How the data were processed

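The authors made 3′ end RNA libraries (QuantSeq), and per their methods and processing notes trimmed reads with fastp 0.20.1, aligned them to GRCh38.p13 with HISAT2 2.2.1 and counted reads per gene with HTSeq 0.13.5. The deposited values are raw counts per gene and library, and the strand setting of the counting is not given in the sources used here. The members and the lists were chosen with earlier results of these data known.

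All 96 libraries were fitted together with edgeR 4.0.16 (R 4.3.3) by its quasi-likelihood test, 1 mean per group, after edgeR's filter on low counts had left 14948 of 44659 entries. P-values were adjusted by Benjamini and Hochberg over all of these, and a call is an adjusted p under 0.05. Intervals are the estimate ± 2 SE. Comparisons without triptolide used TMM. Those with triptolide used DESeq2 1.42.0 size factors over 36 stable genes, which had over 0.2 CPM at the start and a share of counts that rose at least 1.1-fold at both 3 and 5 h. The fit was tested on simulated data with 200 changed genes and the same spread for all genes, for comparisons scaled by TMM only. The simulation did not cover the stable-gene scale. Total counts limit precision for MYC and MYCL, and values printed with counts cover counting error only. Tables held 0 columns that no label maps to a sample.

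All 9 members that passed the filter are described. Of the lists, up to 3 genes in each direction with the largest called differences were eligible to be named, and those named were chosen among them after their values were seen. CACGTG was searched in RefSeq promoters. Alternatives were another scaling, no filter, DESeq2, another set of stable genes, another initial level, a replicate block and leaving out each replicate.

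In 0 of 21 comparisons were all correlations of the deviations of same-numbered replicates over 0.1, and the main fit used no replicate block. That rule turns on the lowest of 3 to 48 correlations per comparison, so it cannot exclude that the numbers pair libraries.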

Additional observations from a re-analysis of the deposited data

Results flagged for a closer look

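For 4 results the effect of CHX differed between the pretreatments by a test of the difference itself (edgeR, adjusted over all genes). The CHX effect on MXD1 at 3 and 5 h was lower in MAPKi than in DMSO, with a log2 difference of −2.17 ± 0.30 (SE, adjusted p 5.63e-08). The CHX effect on MNT was higher in MAPKi by 0.65 ± 0.18 (adjusted p 0.0110). During triptolide, the difference between TCHX and T was larger in MAPKi by 0.47 ± 0.12 for MAX (adjusted p 0.00749) and by 0.89 ± 0.24 for MXD3 (adjusted p 0.00868). Only the first of these was called under every alternative tried, and the cause of any of them was not tested.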

How the results depend on the processing

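Of 54 calls on members, 32 were kept under every alternative and 22 were lost under at least 1. With TMM, the number of members called fell from 8 to 4 for T at 5 h in DMSO and in MAPKi, from 5 to 3 for TCHX against T in DMSO, and from 2 to 0 for the difference of that effect between pretreatments. With total counts these were 5, 5, 3 and 1. Of all 14948 genes, TMM called 2238 higher and 1044 lower for TCHX against T in DMSO, and total counts 2773 and 318. For the difference of that effect, TMM called 423 larger and 132 smaller, and total counts 697 and 79. The numbers of all genes for T at 5 h are given above. Signs turned with TMM for MXI1 under T at 5 h in DMSO (0.15) and MAPKi (0.20), for MXD4 under T in MAPKi (0.17) and for MAX in TCHX against T in DMSO (−0.011). TMM sets the typical gene near 0, with a median of all genes of −0.01 and 0.06 for T at 5 h in DMSO and MAPKi against −0.57 and −0.69 on the stable genes.

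Leaving out 1 replicate gave 3 to 4 members for CHX at 3 and 5 h in each pretreatment, 1 to 2 for the difference of that effect, 7 to 8 for T at 5 h in each pretreatment, 3 to 4 for TCHX against T in DMSO, 0 to 2 for the difference of that effect and 0 to 1 for the difference of the T change at 5 h. The TDD index was higher in MAPKi for all same-numbered replicates in 3 members, and in 4 to 5 once 1 replicate was left out, a count that can only stay or rise with fewer replicates and so says nothing of stability. The share of all genes with that order was not computed, so the count is not a result about the members. Elsewhere the cause of a lost call was not tested.

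With the replicate number as a block, no member's call was lost and MXI1 was also called lower with CHX at 3 and 5 h in MAPKi (−0.16, adjusted p 0.0441), so that 6 members were called there. That is with TMM. On the stable-gene scale, not tested for CHX against vehicle, MXI1 had its highest group mean with CHX at 5 h in MAPKi. The correlations of same-numbered libraries ran from −0.24 to 0.28. Depth limits MYC in MAPKi and MYCL throughout.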

Other observations

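The genes whose course over the 32 group means was most like that of each member were listed by Pearson's r of log2(CPM + 0.5), as a description across groups that share libraries and scaling. For MYC these were DUSP2 (r 0.951), ERRFI1 (0.938), SPRY2 (0.935), REV3L (0.932) and FOSL1 (0.928), of which DUSP2, ERRFI1 and SPRY2 are known feedback inhibitors of receptor and MAPK signalling and FOSL1 is an AP-1 subunit. MAX was most like NOL11 (0.991), NOP16 (0.983) and PSMD12 (0.982), the first a ribosome assembly factor and the last a proteasome subunit. MXD1 was most like the AP-1 gene JUND (0.946), the histone demethylase KDM6B (0.937) and the kinase ABL2 (0.933). For MXD4 it was MARCKS (0.991), for MGA the chromatin remodeller CHD9 (0.978), for MXI1 the iron transporter SLC11A2 (0.956), for MNT SERTAD2 (0.940), for MXD3 the coactivator PPARGC1A (0.939) and for MYCL DENND10 (0.828).

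The pentamer ATTTA, the core of AU-rich elements, was counted on the sense strand of 1 annotated 3′ end region per gene. MXD1 held 10, MYC 6, MXI1 and MGA 4 each, MAX 3, MYCL and MYCN 2 each, and MXD3, MXD4 and MNT 0. Over 19550 transcripts the median was 2, and 67.5% held at least 1. The regions differ in length, from 378 bases for MXD3 to 4661 for MXD1. A match is a description of the letters only.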
